A study of Mus musculus with 22 samples.

Results

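Ctnnd1, Lmo7, Tjap1 and Nf2 code for proteins of cell junctions and of the cell cortex, and the exons of these 4 genes that can be skipped during splicing were followed in mouse embryonic stem (ES) cells. The members are the skipped-exon events, in any of the 7 deposited lists, whose whole span lies within 1 of the 4 genes on the mm10 build. There were 17 such events among 10873 in all, 7 in Ctnnd1, 2 in Lmo7, 3 in Tjap1 and 5 in Nf2, and 15 of the 17 were listed in all 7 libraries. They cover 15 distinct exons, because 1 Ctnnd1 exon and 1 Nf2 exon were each annotated in 2 versions of their neighbours, and 2 of the Ctnnd1 exons are a shorter and a longer form of 1 exon. The genes were chosen by the levels of their exons, which stood apart between these libraries, so their differences from untransfected cells and between the 2 triple knock-downs are given as a description, without a p-value.

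RNA was sequenced from 7 groups of 2 replicates, and the authors pooled the replicates of a group, so each group is 1 library here. The TKO line lacks the 3 DNA methyltransferases Dnmt1, Dnmt3a and Dnmt3b, and WT is the R1 ES line; the lines come from different sources, so that other differences between them cannot be told apart from the loss of the enzymes. Heterochromatin protein 1 (HP1) is a family of chromatin proteins that bind methylated histone H3, and it was depleted with siRNA for 48 h. TKO cells received siRNA against HP1alpha, HP1beta and HP1gamma at 80, 80 and 120 nM (TKO HP1abg-KD), and WT cells received 60 nM of each (WT HP1abg-KD) or 90 nM against 1 of them alone (the single knock-downs HP1a-KD, HP1b-KD and HP1g-KD). The 2 libraries with all 3 targeted are the triple knock-downs. Untransfected TKO and WT cells completed the set. All cells grew on gelatin without feeder cells and with leukaemia inhibitory factor. The knock-down cells were transfected with a lipid reagent and sequenced as paired reads of 101 bases, whereas TKO and WT RNA was sequenced as single reads of 50 bases on an older instrument, and the labels name no control siRNA. Knock-down, transfection and sequencing format can therefore not be told apart in any comparison with untransfected cells, while the 5 knock-downs share transfection and format with each other.

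Adherens junctions join neighbouring cells through cadherins, which in ES cells is mainly E-cadherin, and tight junctions seal the space between epithelial cells. p120 catenin, the product of Ctnnd1, binds the cadherin tail next to the membrane and keeps cadherin at the surface. In human and mouse its messenger is spliced in many ways. Splicing near the 5′ end changes which start codon is used, and short internal exons, known as A, B and C, are added or left out. Lmo7 is a LIM-domain protein that ties the nectin partner afadin to the actin crosslinker alpha-actinin and also binds emerin of the nuclear envelope. Tjap1 is a protein associated with tight junctions, found at the Golgi as well. Nf2 codes for merlin, a tumour suppressor related to ezrin, radixin and moesin, which links junctions to the Hippo pathway and exists with different C-terminal ends.

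The libraries held 4677236 to 9750348 event reads in the knock-downs, against 25200437 in TKO and 25941844 in WT. For each exon the files give an inclusion level from 0 to 1, estimated with MISO, with an interval of unstated confidence. The files also count reads that fit only the form with the exon (inclusion reads), only the form without it (skipping reads), both or neither. The interval had a median width of 0.15 to 0.18 in the knock-downs and 0.09 in TKO and WT. Cbx5, Cbx1 and Cbx3, the genes of HP1alpha, HP1beta and HP1gamma, had 43.0, 507 and 32.2 RPM (reads of the event for each 1000000 event reads of its library) in the single knock-down of each. The single knock-downs of the other proteins had 110 and 105 RPM for Cbx5, 1522 and 1625 RPM for Cbx1, and 49.6 and 52.2 RPM for Cbx3. The 3 genes had 50.5, 1003 and 35.1 RPM in TKO HP1abg-KD and 56.2, 551 and 36.1 RPM in WT HP1abg-KD. They had 109, 659 and 480 RPM in TKO and 113, 615 and 457 RPM in WT. Cbx3 was thus lower in every knock-down library than in TKO and WT, whether or not it was targeted. In that difference knock-down, transfection and sequencing format cannot be told apart. Among the single knock-downs Cbx3 was lowest where it was targeted. Among the knock-downs, which share a sequencing format, Cbx1 in TKO HP1abg-KD lay below those that did not target it. It lay above HP1b-KD and WT HP1abg-KD, which did. It also lay above TKO, but that comparison crosses sequencing formats. Of 14 ES-cell markers 6 have a skipped-exon event, with a summed 2441 to 3215 RPM in all libraries, while Pou5f1, Nanog and Sox2 have none and were not read here. Of 6 epithelial markers 2 have one (Esrp1 and Cldn7), with 297 to 351 RPM in the knock-downs, 154 in TKO and 193 in WT. Of 11 mesenchymal markers 2 have one (Fn1 and Zeb1), with 289 to 469 RPM. Of 4 primitive endoderm markers only Sox17 has one, with 17.7 RPM in TKO HP1abg-KD and 14.6 in TKO, and it was not listed in the other 5 libraries.

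An exon was called where its inclusion and skipping reads differed between 2 libraries in Fisher's exact test, with an adjusted p of at most 0.05 over all exons tested, and its level differed by at least 0.1. Exons needed 20 reads of both kinds together on each side. Since a group is 1 pooled library, the test compares libraries and not conditions.

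The exon of Ctnnd1 on chromosome 2 (84624270 to 84624449, minus strand) is 180 nt long, a length divisible by 3, and lies 34.5 kb from the start of the gene between a 340-nt exon and a 72-nt exon. Its deposited level was high in untransfected cells and low in every knock-down. It was 0.10 in TKO HP1abg-KD (interval 0.06 to 0.14) and 0.05 in WT HP1abg-KD (0.03 to 0.07). It was 0.07, 0.04 and 0.08 in HP1a-KD, HP1b-KD and HP1g-KD, against 0.69 in TKO (0.65 to 0.73) and 0.67 in WT (0.64 to 0.70). All 5 knock-downs lay below both untransfected libraries, with no overlap of intervals. The inclusion and skipping reads were 21 and 39 in TKO HP1abg-KD, 19 and 84 in WT HP1abg-KD, 58 and 189 in HP1a-KD, 26 and 139 in HP1b-KD and 31 and 86 in HP1g-KD. TKO had 491 and 102, and WT had 707 and 227. The exon was called lower in all 4 knock-downs of WT cells against WT and in TKO HP1abg-KD against TKO. The triple knock-down differed from its untransfected line by -0.59 in TKO cells and by -0.62 in WT cells.

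**Figure D1:**
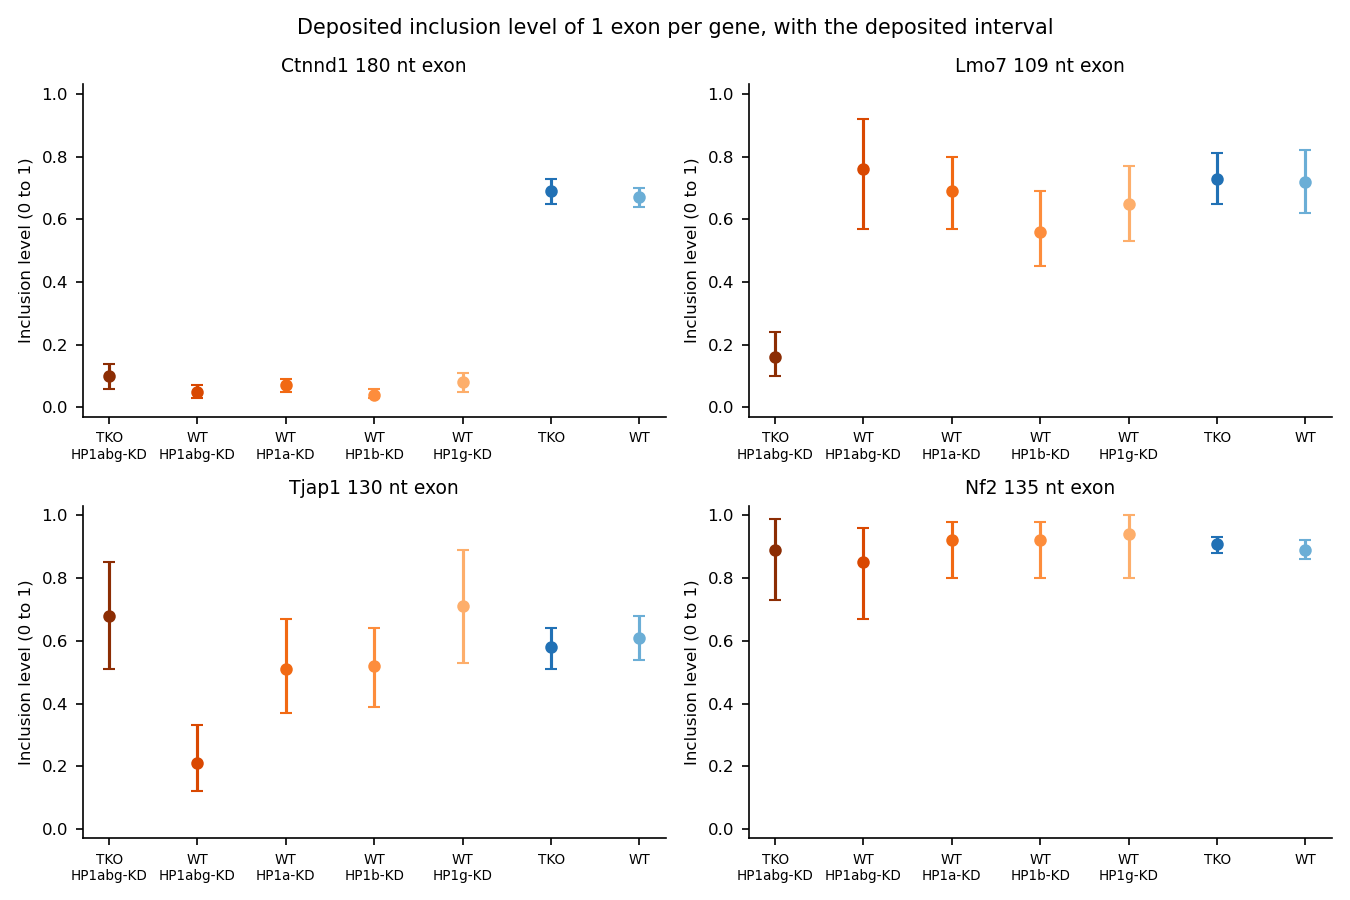
Deposited inclusion level (0 to 1, points) with the deposited interval (bars) in each of the 7 pooled libraries, for 1 exon of each gene. The 5 knock-downs lie at 0.04 to 0.10 for the Ctnnd1 exon, 1 library stands apart for Lmo7 (0.16, TKO HP1abg-KD) and for Tjap1 (0.21, WT HP1abg-KD), and the Nf2 exon lies at 0.85 to 0.94 throughout.

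The same exon was also annotated in a longer version of 289 nt (84624270 to 84624558), which has the same neighbours and starts 109 nt earlier in the transcript. In this version the knock-downs stood closer to untransfected cells. Its level was 0.36 in TKO HP1abg-KD, 0.25 in WT HP1abg-KD and 0.27, 0.24 and 0.25 in the single knock-downs, against 0.74 in TKO and 0.69 in WT. Skipping reads were the same for both versions in every library, because the neighbours are the same, and reads within the shared 180 nt fit both. Inclusion reads of the longer version were 139 in TKO HP1abg-KD, 168 in WT HP1abg-KD, and 385, 258 and 173 in the single knock-downs, against 726 in TKO and 891 in WT. The surplus over the shorter version, 118 to 327 reads in the knock-downs, 235 in TKO and 184 in WT, equalled in each library the surplus of reads that fitted neither form of the shorter version. Inclusion reads of the shorter version were 10.1% to 17.9% of those of the longer version in the knock-downs, 67.6% in TKO and 79.3% in WT. Inclusion reads of the knock-downs thus mostly fit the longer version alone. Skipping reads of the exon before it, given below, joined the start of the longer version in TKO and WT as well. Read format differs between the knock-downs and untransfected cells, and its part in this contrast was not tested.

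The share of inclusion among the 2 kinds of reads was also taken, which does not use the MISO model. It is not corrected for exon length or read format. It therefore does not give the size of a change in inclusion between knock-downs and untransfected cells. With the shorter version the share was 35.0% in TKO HP1abg-KD, 18.4% in WT HP1abg-KD and 15.8% to 26.5% in the single knock-downs, against 82.8% in TKO and 75.7% in WT. With the longer version it was 78.1% in TKO HP1abg-KD (Wilson 95% interval 71.5% to 83.5%), 66.7% in WT HP1abg-KD (60.6% to 72.2%) and 65.0% to 67.1% in the single knock-downs, against 87.7% in TKO (85.3% to 89.7%) and 79.7% in WT (77.2% to 82.0%). WT HP1abg-KD was thus different from WT by -57.2 points with the shorter version and by -13.0 points with the longer one. Such intervals cover counting error only, since reads without molecular identifiers are not independent molecules. Longer paired reads and a higher sum of the epithelial markers both move with the knock-downs, and their part in the difference was not tested. That sum was 297 to 351 RPM, against 154 in TKO and 193 in WT. It rests on 2 of 6 markers, and its comparison itself crosses sequencing formats.

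**Figure D2:**
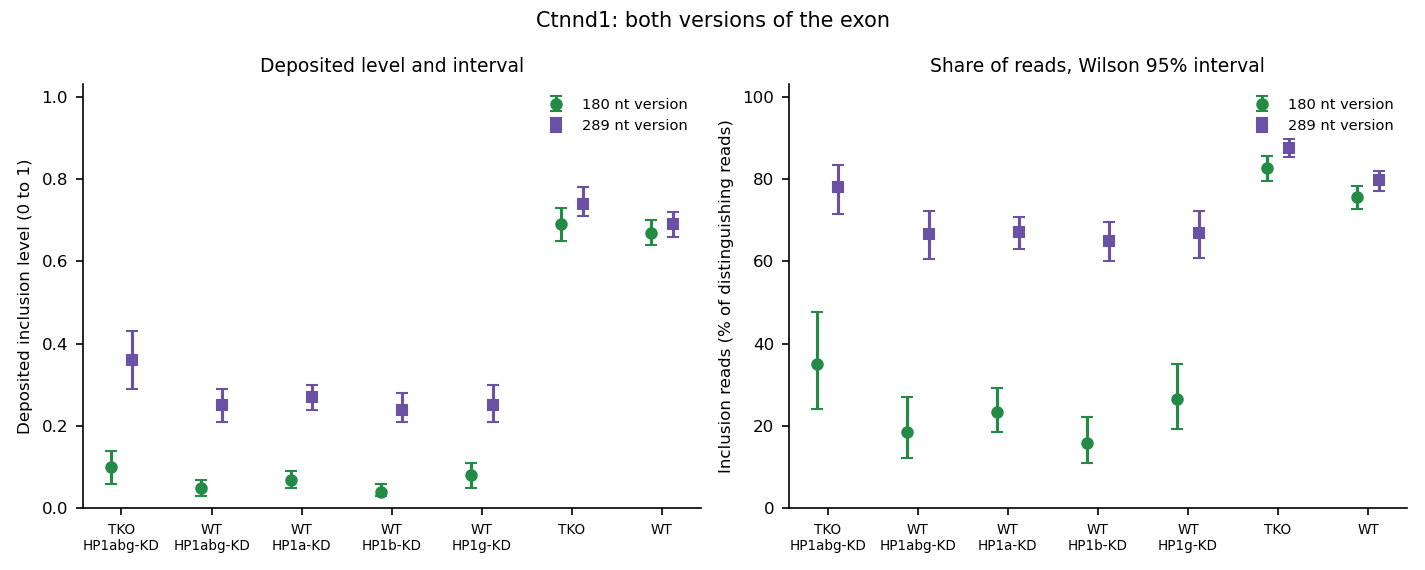
Deposited level with its interval (left, 0 to 1) and share of inclusion reads with Wilson 95% intervals (right, percent) for the 180-nt and 289-nt versions of the Ctnnd1 exon in the 7 pooled libraries. In the share of reads the knock-downs lie at 15.8% to 35.0% for the shorter version and at 65.0% to 78.1% for the longer one, while TKO and WT lie at 75.7% to 87.7% for both.

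A 118-nt exon (84626020 to 84626137) lies between the 340-nt exon and the exon with a shorter and a longer version. It had a level of 0.04 to 0.09 in all libraries, both when annotated before the shorter version and before the longer one. Its shares of inclusion reads were higher than its levels. Before the shorter version the share was 66.7% to 100%, on 6 to 19 inclusion and skipping reads per library. Before the longer version it was 7.87% to 10.6% in the knock-downs, 19.7% in TKO and 33.3% in WT. Its skipping reads show which start of the next exon was joined to the 340-nt exon. Reads joined to the start of the longer version numbered 82 in TKO HP1abg-KD, 118 in WT HP1abg-KD and 253, 183 and 98 in the single knock-downs, against 106 in TKO and 44 in WT. Reads joined to the start of the shorter version numbered 1 or 2 in each knock-down and 0 in TKO and in WT. All such reads in TKO and WT, and all but 1 or 2 in each knock-down, were therefore joined to the start of the longer version, and the 180-nt form was not read at this junction in untransfected cells.

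The 3 internal Ctnnd1 exons differed from each other. Their lengths of 18, 63 and 87 nt would code for 6, 21 and 29 residues, the sizes known for exons C, A and B of p120 catenin. The 87-nt exon (84603188 to 84603274) was left out in all 7 libraries, with a level of at most 0.01 and 0 to 4 inclusion reads beside 118 to 252 skipping reads.

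The 18-nt exon (84612532 to 84612549) had middling levels that varied between libraries. Its level was 0.52 in TKO HP1abg-KD (0.38 to 0.67), 0.39 in WT HP1abg-KD (0.25 to 0.56), 0.30 in HP1a-KD (0.21 to 0.40), 0.55 in HP1b-KD (0.43 to 0.66) and 0.55 in HP1g-KD (0.43 to 0.67). It was 0.53 in TKO (0.47 to 0.60) and 0.37 in WT (0.31 to 0.43). HP1a-KD was the lowest library, and its interval did not overlap those of HP1b-KD and HP1g-KD. The exon was called higher in TKO, HP1b-KD and HP1g-KD, each against WT. TKO and WT share a sequencing format, and TKO had 135 inclusion and 96 skipping reads against 108 and 157 in WT.

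The 63-nt exon (84605184 to 84605246) was the most included of the 3. It stood at 0.84 in TKO HP1abg-KD, 0.85 in WT HP1abg-KD and 0.70, 0.77 and 0.71 in HP1a-KD, HP1b-KD and HP1g-KD, against 0.68 in TKO and 0.64 in WT. All knock-downs lay above both untransfected libraries, but the intervals of the single knock-downs (0.61 to 0.87 in all) overlapped that of TKO (0.66 to 0.71), and those of the triple knock-downs did not. The exon was called higher in TKO HP1abg-KD against TKO and in HP1b-KD and WT HP1abg-KD against WT. No read of a knock-down fitted both forms of this exon, whereas 1098 reads of TKO and 1445 reads of WT did, so that the read classes themselves differ with the sequencing format here.

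Lmo7 has 2 skipped-exon events on chromosome 14 (plus strand). The exon of 109 nt (101931172 to 101931280), a length not divisible by 3, lies 201 kb from the start of the gene. In 6 of the 7 libraries it was included in most messengers, and in TKO HP1abg-KD it was mostly skipped. Its level was 0.16 in TKO HP1abg-KD (0.10 to 0.24), 0.76 in WT HP1abg-KD (0.57 to 0.92) and 0.69, 0.56 and 0.65 in HP1a-KD, HP1b-KD and HP1g-KD. It was 0.73 in TKO (0.65 to 0.81) and 0.72 in WT (0.62 to 0.82). TKO HP1abg-KD lay apart from the other 6 with no overlap of intervals, and the other 6 all overlapped each other. Inclusion and skipping reads were 18 and 29 in TKO HP1abg-KD, against 53 and 3 in WT HP1abg-KD, 94 and 10, 73 and 13, and 98 and 12 in the single knock-downs, 120 and 20 in TKO and 83 and 17 in WT. The exon was called lower in TKO HP1abg-KD against TKO, with a difference of -0.57, and against WT HP1abg-KD, with a difference of -0.60. No other of the 4473 exons tested between the 2 triple knock-downs differed by as much. The exon was chosen by its levels in these libraries, so this rank is a description only. In TKO HP1abg-KD 47 reads carry the value. The 2 triple knock-downs also differed in siRNA dose and in Cbx1 (1003 RPM in TKO cells and 551 RPM in WT cells), and the part of these in the difference was not tested.

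Event reads of this Lmo7 exon were 24.6 RPM in TKO and 14.8 RPM in WT, a ratio of 1.66 (exact 95% interval 1.46 to 1.89), where the median over all events was 1.09 and 16.1% of events reached a ratio of 1.5. Between the triple knock-downs the direction was the other one, with 32.9 RPM in TKO cells and 45.1 RPM in WT cells, a ratio of 0.729 (0.604 to 0.880) where the median over all events was 0.890. For the other genes the TKO to WT ratio was 0.819 to 1.07 over 7 Ctnnd1 events, 1.11 and 1.12 for 2 Tjap1 events and 1.02 to 1.20 over 5 Nf2 events. Their ratio between the triple knock-downs was also below 1, at 0.563 to 0.862 for Ctnnd1, 0.723 and 0.755 for Tjap1 and 0.528 to 0.848 for Nf2, so the low ratio there was shared by all 4 genes. In such bulk samples fewer cells with the gene and less RNA per cell cannot be told apart. The other Lmo7 exon, of 30 nt (101888677 to 101888706), was included throughout. It stood at 0.96, 0.95 and 0.94 in HP1a-KD, HP1b-KD and HP1g-KD, 0.99 in TKO and 0.98 in WT, with 29 to 167 inclusion reads and 0 skipping reads in each. It was not listed in either triple knock-down.

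Tjap1 has 3 events on chromosome 17 (minus strand). The exon of 130 nt (46271800 to 46271929), not divisible by 3 in length, lies 11.1 kb from the start of the gene. Its level was lowest in WT HP1abg-KD and highest in HP1g-KD and TKO HP1abg-KD. It was 0.68 in TKO HP1abg-KD (0.51 to 0.85), 0.21 in WT HP1abg-KD (0.12 to 0.33), 0.51 in HP1a-KD (0.37 to 0.67), 0.52 in HP1b-KD (0.39 to 0.64) and 0.71 in HP1g-KD (0.53 to 0.89). It was 0.58 in TKO (0.51 to 0.64) and 0.61 in WT (0.54 to 0.68). The interval of WT HP1abg-KD lay below those of the other 6, which overlapped each other.

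The share of inclusion reads of the Tjap1 exon differed less between WT HP1abg-KD and WT than its level did. Inclusion and skipping reads were 68 and 5 in TKO HP1abg-KD, 26 and 18 in WT HP1abg-KD and 76 and 13, 88 and 14, and 55 and 4 in HP1a-KD, HP1b-KD and HP1g-KD. TKO had 151 and 53, and WT had 150 and 50. The share of inclusion reads was 59.1% in WT HP1abg-KD (44.4% to 72.3%) and 75.0% in WT (68.6% to 80.5%), and the exon was not called between them although the level differed by -0.40. It was called higher in HP1g-KD against WT and in TKO HP1abg-KD against TKO, each with a level difference of 0.10. Against WT HP1abg-KD, TKO HP1abg-KD was called higher with a difference of 0.47, and the share of inclusion reads was 93.2% there. No read of a knock-down fitted both forms of this exon, against 210 in TKO and 173 in WT.

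The exon of 94 nt just before it (46282346 to 46282439) stood at 0.86 to 0.93 in the knock-downs and at 0.99 in both TKO and WT, with 1 skipping read in WT HP1abg-KD and 0 in the other 6 libraries. The Tjap1 exon of 97 nt (46264094 to 46264190) had fewer than 20 inclusion and skipping reads in every library that listed it, with levels of 0.08 to 0.17 in the single knock-downs, 0.04 in TKO and 0.01 in WT. It entered no comparison.

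**Figure D3:**
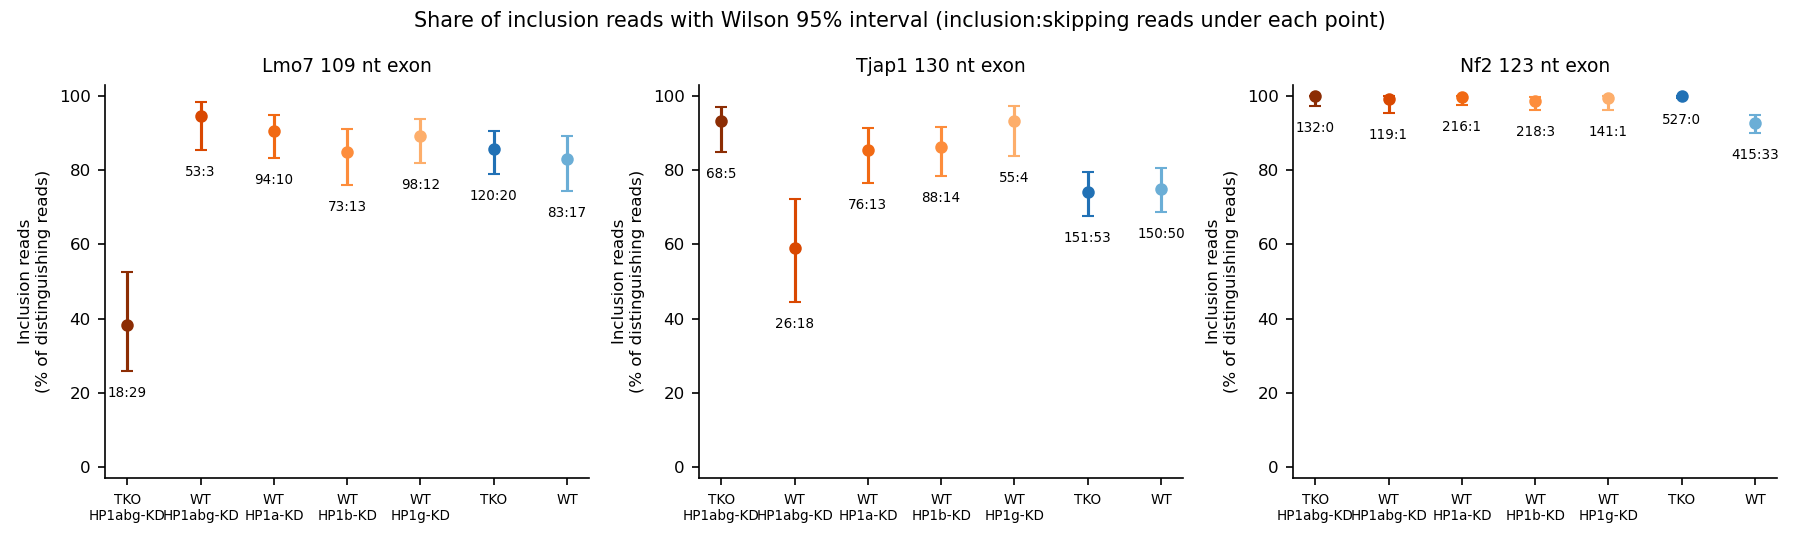
Share of inclusion reads (percent of inclusion plus skipping reads) with Wilson 95% intervals in the 7 pooled libraries for an exon each of Lmo7, Tjap1 and Nf2, with the inclusion and skipping reads printed under each point. The lowest points are 38.3% for Lmo7 in TKO HP1abg-KD, 59.1% for Tjap1 in WT HP1abg-KD and 92.6% for Nf2 in WT.

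Nf2 has 5 events over 4 exons on chromosome 11 (minus strand), and of these only the 123-nt exon was called in any of the 11 comparisons. This exon (4818505 to 4818627), singled out after its values were seen, was nearly always included in 6 libraries and less so in WT. It stood at 0.95 in TKO HP1abg-KD, 0.93 in WT HP1abg-KD, 0.97, 0.93 and 0.94 in the single knock-downs and 0.98 in TKO (0.95 to 1.00), against 0.78 in WT (0.73 to 0.83). WT had 33 skipping reads beside 415 inclusion reads, whereas the other 6 libraries together had 6 skipping reads beside 1353 inclusion reads. The interval of WT overlapped that of WT HP1abg-KD (0.82 to 0.99) and no other. The exon was called higher in TKO and in all 4 knock-downs of WT cells, each against WT. In shares of reads the difference was small, 100% in TKO against 92.6% in WT.

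The Nf2 event with most inclusion and skipping reads together was the exon of 135 nt (4799861 to 4799995). It stood at 0.89 in TKO HP1abg-KD, 0.85 in WT HP1abg-KD, 0.92, 0.92 and 0.94 in the single knock-downs, 0.91 in TKO and 0.89 in WT. All its intervals overlapped and it was called in no comparison. The exon of 139 nt (4808696 to 4808834) was mostly skipped, at 0.02 with 4 inclusion and 148 skipping reads in TKO and at 0.01 with 0 and 132 in WT. Its level of 0.38 in HP1g-KD rests on 1 inclusion and 1 skipping read, with an interval of 0.05 to 0.78, and the other knock-downs stood at 0.03 to 0.13 on at most 9 such reads.

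The last event of Nf2 is a 45-nt exon (4780578 to 4780622) before the 3′ terminal exon, where an alternative exon of the human gene gives merlin its second C-terminal end. It was annotated after 2 forms of the preceding exon, of 166 and 182 nt. After the 166-nt form it stood at 0.85 in TKO HP1abg-KD, 0.88 in WT HP1abg-KD, 0.90, 0.89 and 0.86 in the single knock-downs, 0.90 in TKO and 0.89 in WT. All 7 intervals overlapped, with 174 to 395 inclusion reads and 11 to 29 skipping reads. After the 182-nt form the level ranged over 0.43 to 0.59 in the knock-downs, 0.65 in TKO and 0.80 in WT, but no library had more than 1 skipping read there.

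**Figure D4:**
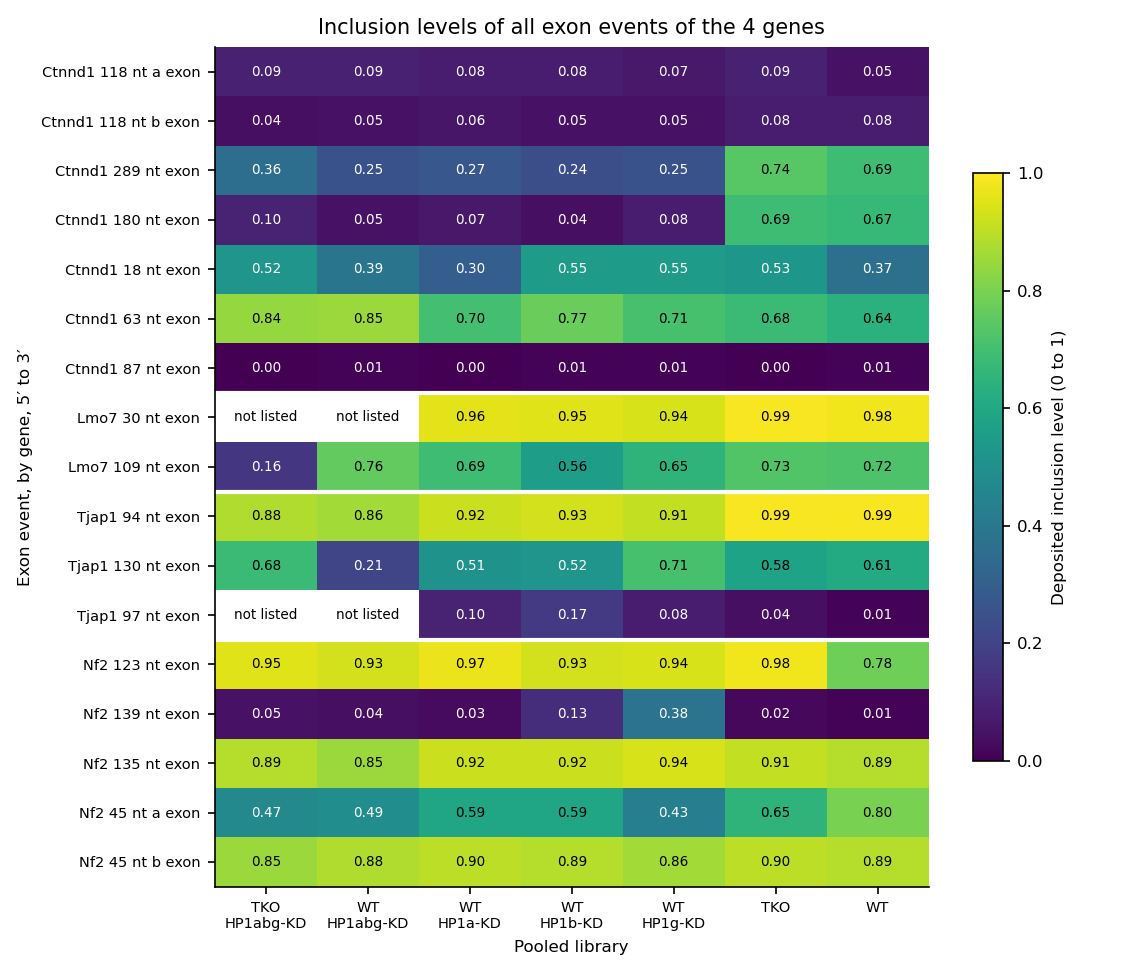
Deposited inclusion level (0 to 1, colour and number) of all 17 events of the 4 genes in the 7 pooled libraries, in gene order from 5′ to 3′, with a and b for the same exon beside different annotated neighbours. The Ctnnd1 exons of 180 and 289 nt separate the knock-downs from TKO and WT, and single squares stand out for Lmo7 (0.16), Tjap1 (0.21) and the Nf2 exon of 123 nt in WT (0.78).

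Counted over the 4 genes, the members were called as follows, beside the share of all tested exons that was called. Of 15 members tested in TKO against WT, 2 were called higher (the Ctnnd1 exon of 18 nt and the Nf2 exon of 123 nt) and 0 lower, where 4.57% of all exons were called, 3.18% higher and 1.39% lower. In HP1a-KD against WT, 1 of 14 was higher and 2 lower, beside 11.8% of all exons (1.64% higher and 10.2% lower). In HP1b-KD against WT, 3 of 14 were higher and 2 lower, beside 11.8% of all exons (1.92% and 9.91%). HP1g-KD also had 3 of 14 higher and 2 lower than WT, beside 11.4% of all exons (1.60% and 9.84%). In WT HP1abg-KD against WT, 2 of 13 were higher and 2 lower, beside 11.2% of all exons (1.83% and 9.37%). In TKO HP1abg-KD against TKO, 2 of 13 were higher and 3 lower, beside 12.3% of all exons (1.31% and 10.9%). In TKO HP1abg-KD against WT HP1abg-KD, 1 of 13 was higher (Tjap1) and 1 lower (Lmo7), beside 0.469% of all exons (0.246% and 0.224%). The 5 comparisons against WT share the WT library, and the 7 comparisons include those that chose the genes, so nothing is read from the counts. The median absolute difference in level was 0.02 over the members and 0.02 over all exons for TKO against WT, and 0.13 and 0.06 for WT HP1abg-KD against WT.

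**Figure D5:**
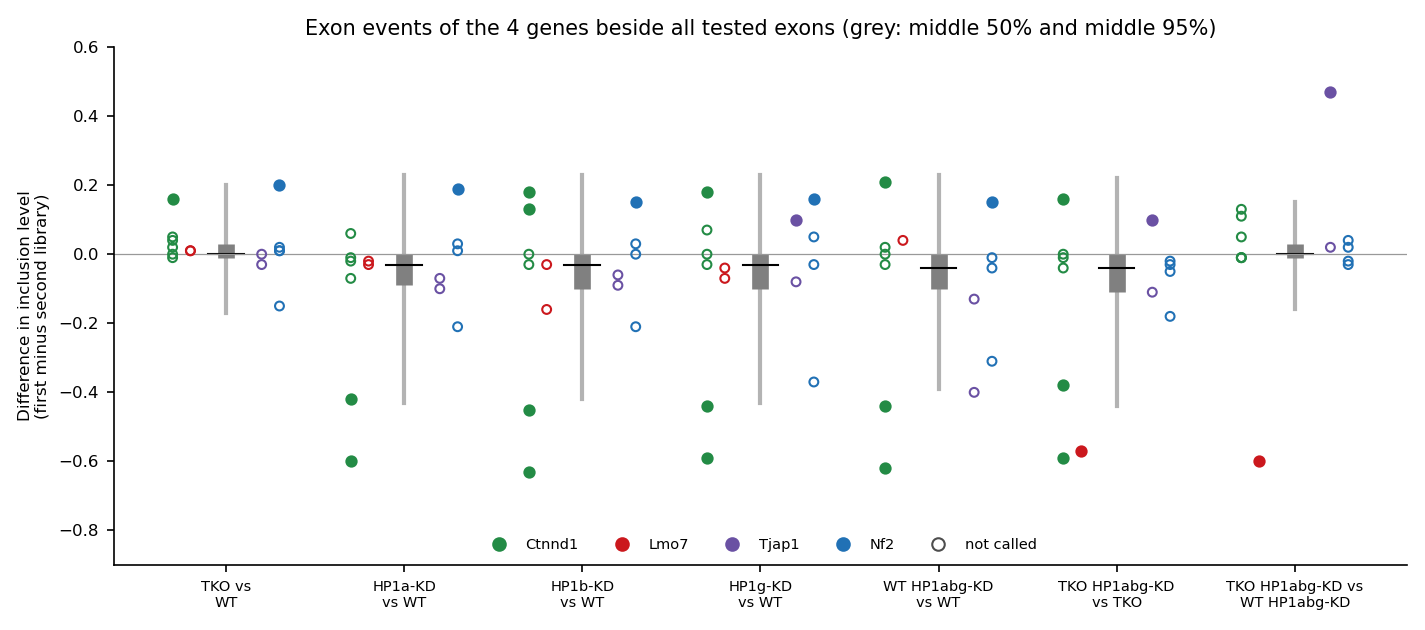
Difference in deposited inclusion level (first minus second library) for each tested event of the 4 genes (points, filled where called) beside all tested exons (thick grey bar, middle 50%; thin grey bar, middle 95%; black line, median) in 7 comparisons. The 2 Ctnnd1 versions lie at -0.38 to -0.63 in every comparison of knock-downs with untransfected cells, and Tjap1 (0.47) and Lmo7 (-0.60) lie apart between the triple knock-downs.

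The 5 knock-downs share the instrument, the read length and the transfection, so the 4 knock-downs of WT cells were also compared with each other. The 3 single knock-downs differ from WT HP1abg-KD in dose as well, 90 nM of 1 siRNA against 60 nM of each of 3. Between WT HP1abg-KD and the pooled single knock-downs 0 of 13 members were called higher and 1 lower, where 0.043% of 4655 exons (2 exons) were called. The called member was the Tjap1 exon of 130 nt, at 0.21 in WT HP1abg-KD against a mean of 0.58 in the single knock-downs. Its low level in that library was among the values by which the gene was chosen, so no p-value is given, and against each single knock-down alone it was not called. The 180-nt exon of Ctnnd1 gave an odds ratio of 0.815 in this comparison, without an interval because its levels were also among those values. Its 289-nt version gave 1.01, also without an interval, since it has the same skipping reads. The Ctnnd1 exon of 63 nt stood at 0.85 in WT HP1abg-KD and at a mean of 0.727 in the single knock-downs, with an odds ratio of 2.17 (0.949 to 5.81) and an adjusted p of 1 in Fisher's exact test. The Lmo7 exon of 109 nt, also chosen by its levels, stood at 0.76 in WT HP1abg-KD and at a mean of 0.633 in the single knock-downs. Its odds ratio was 2.33, and neither a rise nor a fall is read from it.

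Among the single knock-downs none of the 14 members tested was called in any of the 3 comparisons, where 0%, 0.0178% and 0% of all exons were called for HP1alpha, HP1beta and HP1gamma, each against the other two. The member with the lowest unadjusted p over these 3 comparisons was the Ctnnd1 exon of 18 nt, at 0.30 in HP1a-KD against a mean of 0.55 in HP1b-KD and HP1g-KD. It had 28 inclusion and 49 skipping reads there against 81 and 49, an odds ratio of 0.348 (exact 95% interval 0.184 to 0.645), with p = 0.000332 in Fisher's exact test and an adjusted p of 0.211 over all 5726 exons. A difference at least this large in level was seen in 0.576% of these exons. The 180-nt exon of Ctnnd1 stood at 0.04 in HP1b-KD against a mean of 0.075 in the other two, and it is given without a p-value because its levels were among those by which the gene was chosen. For the 289-nt version of Ctnnd1 the intervals of the odds ratios lay within 0.706 to 1.39.

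Other junction genes were read from a list of 119 genes of adherens and tight junctions, desmosomes, polarity complexes and the merlin and Hippo pathway, without the 4 members. In TKO against WT 10 of 111 tested exons were called higher, 3 lower and 98 not, which is 11.7% called beside 4.57% of all exons (3.18% higher and 1.39% lower), with a median absolute difference of 0.02 in the list and 0.02 over all exons. The largest called rise was in Epb41l3, a band 4.1 protein of the membrane skeleton, at 0.89 in TKO against 0.67 in WT. The largest called fall was in Mark2, a polarity kinase, at 0.79 in TKO against 0.99 in WT. In HP1a-KD, HP1b-KD and HP1g-KD against WT, 1 exon each was called higher and 5 of 78, 4 of 74 and 4 of 64 lower. The called share was 7.69%, 6.76% and 7.81% in the list beside 11.8%, 11.8% and 11.4% of all exons, with medians of 0.045, 0.04 and 0.05 beside 0.05 over all exons in each. In WT HP1abg-KD against WT 0 of 60 were higher and 3 lower, 5.00% beside 11.2% of all exons, with a median of 0.03 beside 0.06. Ybx3, a tight junction associated Y-box protein, had the largest called fall in each of these, at 0.36 in WT HP1abg-KD and 0.36, 0.40 and 0.37 in HP1a-KD, HP1b-KD and HP1g-KD, against 0.70 in WT. Its share of inclusion reads differed less, at 81.3% in WT HP1abg-KD and 81.7%, 83.7% and 81.9% in the single knock-downs, against 86.6% in WT.

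The exon called higher in HP1a-KD was in Yap1, the effector of the Hippo pathway, at 0.51 against 0.41 in WT. Emerin (Emd), the nuclear envelope partner of Lmo7, was called higher in HP1b-KD and HP1g-KD, at 0.57 and 0.62 against 0.32 in WT. Its reads ran against its levels, with 27 inclusion and 5 skipping reads in HP1b-KD and 30 and 3 in HP1g-KD, against 225 and 0 in WT. In TKO HP1abg-KD against TKO 1 of 63 exons was higher and 8 lower (14.3% called, beside 12.3% of all exons), the largest fall being Mark3, another polarity kinase, at 0.19 in TKO HP1abg-KD against 0.67 in TKO. The exon called higher was in Arhgap17, at 0.70 in TKO HP1abg-KD against 0.60 in TKO, and its reads also ran against its levels, 71 and 6 against 134 and 0. The median was 0.06 in the list and 0.05 over all exons. Between the 2 triple knock-downs only an exon of Epb41l1, another band 4.1 protein, was called among 54 (1.85%, beside 0.469% of all exons), at 0.21 in TKO cells against 0.02 in WT cells. Among the knock-downs of WT cells none of 59 to 68 exons was called in any of the 4 comparisons.

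The exons of other genes with the most similar pattern were sought among 4313 exons with enough reads in all 7 libraries, by the root mean square difference of the 7 levels. For the Ctnnd1 exon of 180 nt these were exons of Tra2a (0.0387), Srp9 (0.0638) and Eif4a2 (0.0729). For the Lmo7 exon of 109 nt the nearest was an exon of Zmym4 at 0.0838, which stood at 0.33 in TKO HP1abg-KD and at 0.52 to 0.76 in the other 6. For the Tjap1 exon of 130 nt the nearest was an exon of 2410002F23Rik at 0.0696, followed by Dlg1 at 0.120, a polarity scaffold gene that stood at 0.44 in WT HP1abg-KD and at 0.49 to 0.77 in the other 6. For the Nf2 exon of 135 nt the nearest was an exon of Dpp7 at 0.00926, as flat across the libraries as its own.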

How the data were processed

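In all, 14 RNA samples in 7 groups were used through 7 splicing summaries; 8 other samples (bisulfite and MNase sequencing) were not analysed here. The authors pooled the 2 replicates of a group before deposit, per the labels, so p-values compare libraries. TopHat2, Bowtie2 and the mm10 build are named in the submitters' processing notes, without versions. The authors ran MISO on skipped exons, per the file headers. Its posterior mean is the inclusion level, deposited as a fraction (0 to 1) with interval bounds, and the deposited counts are reads that fit inclusion, skipping, both or neither. Tool versions, and which event annotation served, were not given in the sources used here. Every deposited event has at least 100 reads, so rarer events are missing from a library's list.

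Events were joined by coordinates and placed in genes with the GRCm38.p6 RefSeq gene table; exon and UTR annotation and sequences were not used here. Fisher's exact test, two-sided (scipy 1.17.1), compared inclusion and skipping reads, adjusted by Benjamini-Hochberg over all exons having at least 20 such reads on each side. Calls needed an adjusted p no higher than 0.05 and a level difference of at least 0.1. For pooled knock-downs reads were summed and levels averaged. In the 5 knock-downs the share of inclusion reads lay above the deposited interval in 50 of 68 values and within it in 18, and in TKO and WT above it in 19 of 30 and within it in 11, so level and share are not the same measure. The test was also run on simulated read counts. There the difference was taken in shares of inclusion reads and not in deposited levels, so that run does not cover the level part of the calls. Event reads (RPM) are the reads of an event for each 1000000 event reads of its library, with exact intervals for ratios.

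The members and lists were chosen with earlier results of these data known. Named were all events of the 4 genes, the Nf2 event with most inclusion and skipping reads, and the 3 exons nearest in pattern to each main exon. So was the called junction-list exon with the largest difference per direction and comparison. Alternatives were the read minimum (10 or 40), the minimum difference (0.2), the share of reads as the measure, a null set by exon length, deposited intervals in place of the test and single in place of pooled knock-downs. The longer Ctnnd1 version as an alternative was chosen after seeing the data.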

Additional observations from a re-analysis of the deposited data

Results flagged for a closer look

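Exons at which the triple knock-down had level differences of opposite sign in the 2 cell lines, with a gap of at least 0.1 between them, were picked out, and 3 of the 4 genes held one. The Lmo7 exon of 109 nt differed from its untransfected line by -0.57 in TKO cells and by 0.04 in WT cells, a gap of -0.61, and the difference in WT cells was not called. The Tjap1 exon of 130 nt differed by 0.10 in TKO cells and by -0.40 in WT cells, a gap of 0.50, and the difference in WT cells was not called. The Nf2 exon of 123 nt differed by -0.03 in TKO cells and by 0.15 in WT cells, a gap of -0.18. The difference in TKO cells was not called, with 0 skipping reads in both libraries, so that no opposite movement is shown for Nf2, and untransfected WT is the library that stands apart. These gaps were not tested, since the genes were chosen with such differences known, and each rests on 4 pooled libraries of which 2 were transfected and sequenced in another format. The Ctnnd1 exon of 180 nt, by comparison, differed by -0.59 in TKO cells and by -0.62 in WT cells. Its 289-nt version, the one whose start was read at the splice junction, differed by -0.38 and by -0.44 in level, and by -9.59 and -13.0 points in the share of inclusion reads.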

How the results depend on the processing

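No paired analysis was possible because the replicates of each group were pooled before deposit, and for the same reason no replicate was left out. A read minimum of 10 or 40 left all 11 counts of called members within 1.5 times. With a minimum difference of 0.2 the members called numbered 1 rather than 2 for TKO against WT, 2 rather than 5 for HP1b-KD and for HP1g-KD against WT, and 3 rather than 5 for TKO HP1abg-KD against TKO. For TKO against WT the count was also 1 with the share of reads as the measure and 1 with the null set by exon length. With deposited intervals in place of the test it was 3 for HP1b-KD. The 1 member called between the triple and the pooled single knock-downs became 0 against the HP1a-KD, HP1b-KD or HP1g-KD alone. No called member changed direction. Over the 7 comparisons with described members, 0.469% to 12.3% of all exons were called, 0.246% to 7.40% at a minimum difference of 0.2 and 1.59% to 19.5% by intervals. The null set by exon length moved the calls over all exons from 245 higher and 107 lower to 196 and 140 for TKO against WT, from 84 and 430 to 100 and 263 for WT HP1abg-KD against WT, and from 11 and 10 to 9 and 13 between the triple knock-downs. The cause was not tested. Of 39 single levels and list medians recomputed as shares of reads, 38 were counted as moved. The list medians have no error to compare with, and level and share are not the same measure. Of 7 levels of the Ctnnd1 exon 6 moved with its longer version. Depth limits the 2 library-specific levels, with 44 inclusion and skipping reads for Tjap1 in WT HP1abg-KD and 47 for Lmo7 in TKO HP1abg-KD.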
